A study of Columba livia with 19 samples.

Results

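Recessive red pigeons homozygous for the e2 allele were compared with homozygous wild-type pigeons in the growing feather, in 8 birds chosen by genotype and batch from the 19 of the series. The 3 e2 birds carried the numbers 5, 7 and 14, and the 5 wild-type birds the numbers 00, 20, 21, 23 and 24. All 8 belonged to batch 2, collected in 2020. The labels give neither the sex, age and breed of a bird nor its relation to the others. The same batch also held 3 recessive red homozygotes for the other allele, e1, and 1 wild-type carrier of e1. Batch 1, sequenced in 2017, held 3 e1 homozygotes and 4 wild-type birds. In every bird the material was polyadenylated RNA from the collar of flight feathers that were plucked and had regrown for 9 to 10 days, with the pulp removed.

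The feather collar is the ring of growing epidermis at the base of the feather. It holds dividing keratinocytes, which build the feather, and melanocytes, which pass pigment to them. SOX10 is a transcription factor of neural crest cells that acts in melanocytes upstream of MITF and of genes for enzymes of melanin synthesis. The recessive red alleles affect SOX10 and shift feather pigment from black and brown eumelanin to red and yellow pheomelanin. The comparison asks which transcripts of the collar differ in e2 birds.

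The table gives genes by identifiers that its header assigns to Cliv2.1, and 0 of its 15392 identifiers were found among the 22830 genes of the pigeon assembly bColLiv1.pat.W.v2. Gene names, sequences and positions are therefore not given, and SOX10, pigment genes and markers of melanocytes or keratinocytes were not analysed here. The tissue label was for this reason not checked against markers. In a whole feather collar, fewer cells of a type and less RNA per cell cannot be told apart.

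Sequencing depth overlapped between the groups. Total counts were 15170832 to 19299570 in e2 and 14895906 to 17823794 in wild type. Of 4 library measures (total counts, detected genes, share of counts in the 100 most abundant genes, scaling factor) none separated the groups by the test used (exact permutation test, 2-sided, adjusted p = 0.429 for each, where 3 against 5 birds cannot go below an unadjusted p of 0.0357). Along the first principal component of log2(CPM + 0.5) over the 8 birds, which held 32.1% of the variance, e2 birds lay at -40.1 (bird 5), -9.5 (bird 7) and -36.7 (bird 14), and wild-type birds between 9.7 and 31.6. Bird 7 was the e2 bird nearest to wild type on that component, and on the second (21.3% of the variance) birds 7 and 5 lay at opposite ends, at -39.9 and 30.9.

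In e2 collars 139 genes rose and 89 fell relative to wild type, among 13269 tested (edgeR quasi-likelihood test, adjusted p under 0.05, no minimum fold). Higher genes were thus 1.05% of those tested and lower genes 0.671%. The lower genes had a median log2 fold change of -1.63, with quartiles of -2.51 and -1.13, and the higher genes 1.49, with quartiles of 1.00 and 2.21. Over all tested genes the median was 0.02. Called genes are chosen for their difference, so these medians only describe them. A 4-fold change was reached by 31 lower and 41 higher genes, and a 16-fold change by 10 lower and 5 higher genes.

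**Figure D1:**
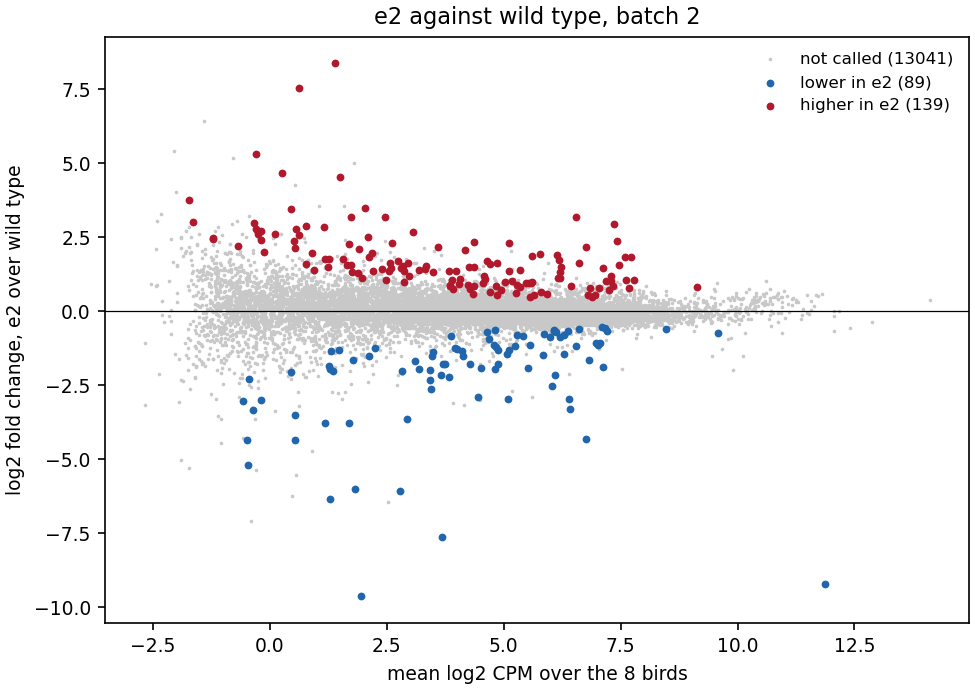
Each point is a gene, at its mean log2 CPM over the 8 birds (horizontal axis) and its log2 fold change in e2 over wild type (vertical axis). The 139 higher genes (red) and 89 lower genes (blue) stand among those not called (grey), and the lowest blue points lie near -10.

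Complete separation of the groups was common among the called genes. All 89 lower genes and 134 of the 139 higher genes had no overlap between e2 and wild-type birds. Over all tested genes the same was true of 5.22% with e2 lower and of 5.67% with e2 higher. The genes were called on these same birds, which itself favours separation, so its frequency only describes the called genes. Of the lower genes, 4 had 3 counts or fewer over the 3 e2 birds, and 4 of the higher genes had 3 counts or fewer over the 5 wild-type birds. The share of all tested genes with so few counts was not computed, so these counts only describe the called genes. The lower genes together took 0.253 ± 0.0151% of the counts in e2 (SD, n = 3) and 1.16 ± 0.274% in wild type (SD, n = 5). Without A306_00007909, described below, those shares were 0.252 ± 0.0147% in e2 and 0.552 ± 0.0664% in wild type. The higher genes took 0.932 ± 0.0845% of the counts in e2 and 0.402 ± 0.0302% in wild type. As these genes were chosen on the same birds, the shares carry no test. The e1 birds 6, 11 and 12 of batch 2 held 0.9175, 0.708 and 0.7408% of their counts in the higher genes. In the lower genes they held 0.2894, 0.3151 and 0.3488%. Both shares lay outside the range of the wild-type birds, on the same side as e2, so neither shift was particular to e2.

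**Figure D2:**
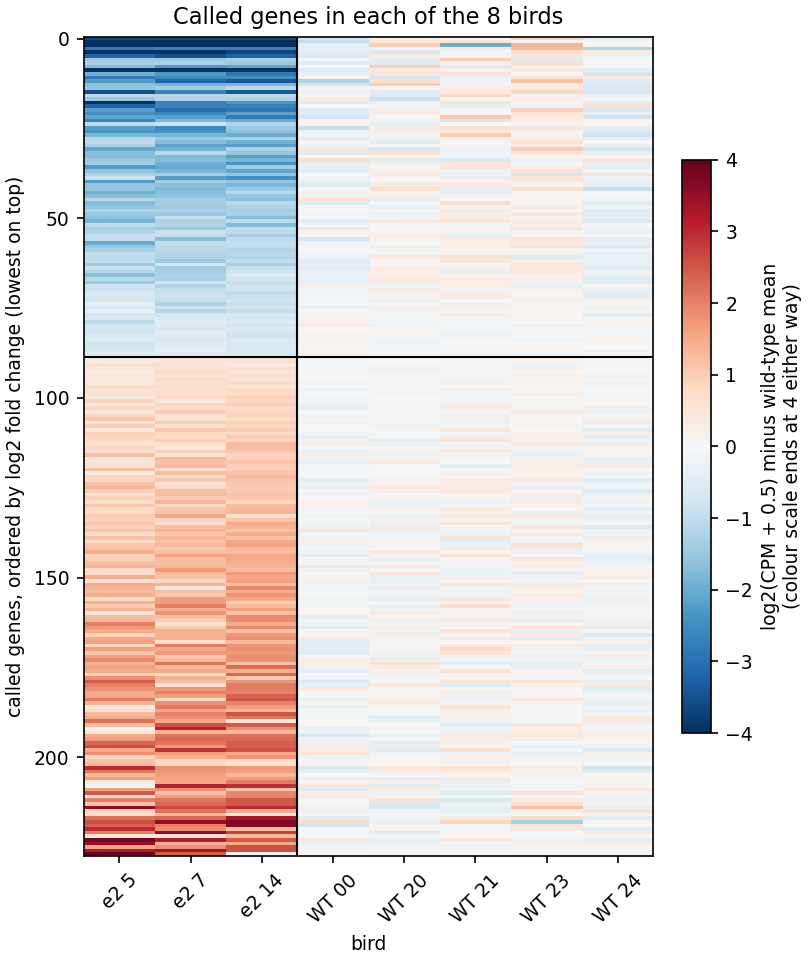
Colour gives, for each called gene (row) and bird (column), the log2(CPM + 0.5) minus the mean of the wild-type birds, with the scale ending at 4 either way. The 89 lower genes stand above the horizontal line and the 139 higher genes below it, with the e2 birds left of the vertical line and the wild-type birds right of it.

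The calls depended on single birds. The total of 228 became 95 without e2 bird 14, 138 without wild-type bird 00, 128 without bird 20 and 143 without bird 23. It was 696 with DESeq2. In each of the 8 fits that left out a bird, all 89 lower and all 139 higher genes kept their sign where they were tested, and 28 lower and 50 higher genes were called in every one of these fits. Of the lower genes, 3 were called in none of them. Leaving out bird 14 kept 88 of the 228 genes among its calls. Without e2 bird 7 the total rose to 275, of which 150 were among the 228. Without e2 bird 5 it rose to 304, of which 174 were.

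**Figure D3:**
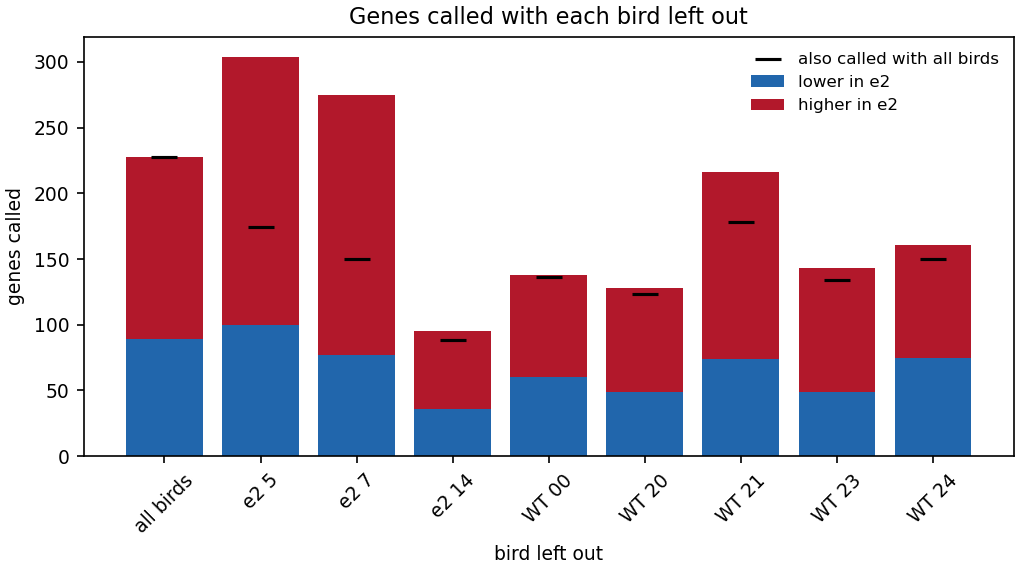
Bars give the number of genes called lower (blue) and higher (red) in e2 with all birds and with each bird left out. Black marks give how many of the calls were also made with all birds. The shortest bar is that without e2 bird 14, at 95 genes.

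A306_00015279 was one of the 2 lower genes with the largest change among called genes that averaged at least 1 log2 CPM over the 8 birds and did not overlap between the groups. It had 0 counts in e2 birds 5, 7 and 14, against 51, 111, 81, 181 and 76 counts in wild-type birds 00, 20, 21, 23 and 24. Setting the e2 group as a whole to the 3 counts that a count of 0 allows, e2 was at least 105-fold lower than wild type, which stood at 6.03 ± 2.89 CPM (SD, n = 5). This bound covers counting error in the e2 group only. The transcript was not detected in any e2 bird, and every wild-type bird held it. The gene was called lower (edgeR, adjusted p = 0.00108), and its fitted fold change is not given because it turns on the prior count. The 3 e1 birds of batch 2 held 3 counts in all.

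A306_00007909 was the other. It stood at 3.39, 3.22 and 23.2 CPM in e2 birds 5, 7 and 14, against 2908, 8014, 8200, 5523 and 5226 CPM in wild-type birds 00, 20, 21, 23 and 24. No e2 bird came near the wild-type range, and bird 14, with 445 counts, kept more of the transcript than birds 5 and 7, with 59 and 50 counts. The log2 fold change was -9.22 ± 0.88 (SE; edgeR, adjusted p = 2.55e-04). It was -10.82 without bird 14 and between -10.82 and -8.80 with any 1 bird of the 8 left out. In e1 birds of batch 2 the gene stood at 3.39 to 7.68 CPM, below bird 14, and e2 minus e1 was not called (log2 difference 0.68 ± 0.67, SE; edgeR, adjusted p = 0.999).

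Among the higher genes, A306_00008834 had the largest change under the same rule. It stood at 10.35, 6.24 and 3.65 CPM in e2 birds 5, 7 and 14, against 0.499, 0.123, 0.518, 0.176 and 0.112 CPM in wild-type birds 00, 20, 21, 23 and 24. The groups did not overlap, and the 5 wild-type birds held 23 counts in all. The log2 fold change was 4.55 ± 0.47 (SE; edgeR, adjusted p = 4.35e-04). In batch 2, e1 birds stood at 6.03 to 9.57 CPM, within the range of the e2 birds.

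A306_00009230 was the other higher gene, up by 3.50 ± 0.47 on the log2 scale (SE; edgeR, adjusted p = 0.00312). Its level was 4.66, 14.9 and 8.07 CPM in e2 birds 5, 7 and 14, against 0.810, 0.432, 0.842, 0.761 and 1.18 CPM in wild-type birds 00, 20, 21, 23 and 24. Here bird 7 was the highest e2 bird, where for A306_00008834 it was bird 5. The e1 birds of batch 2 stood at 0.435, 1.22 and 2.15 CPM, each below each e2 bird. The direct difference of e2 minus e1 was 2.86 ± 0.55 on the log2 scale and did not pass the adjustment over all genes (SE; edgeR, adjusted p = 0.350).

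**Figure D4:**
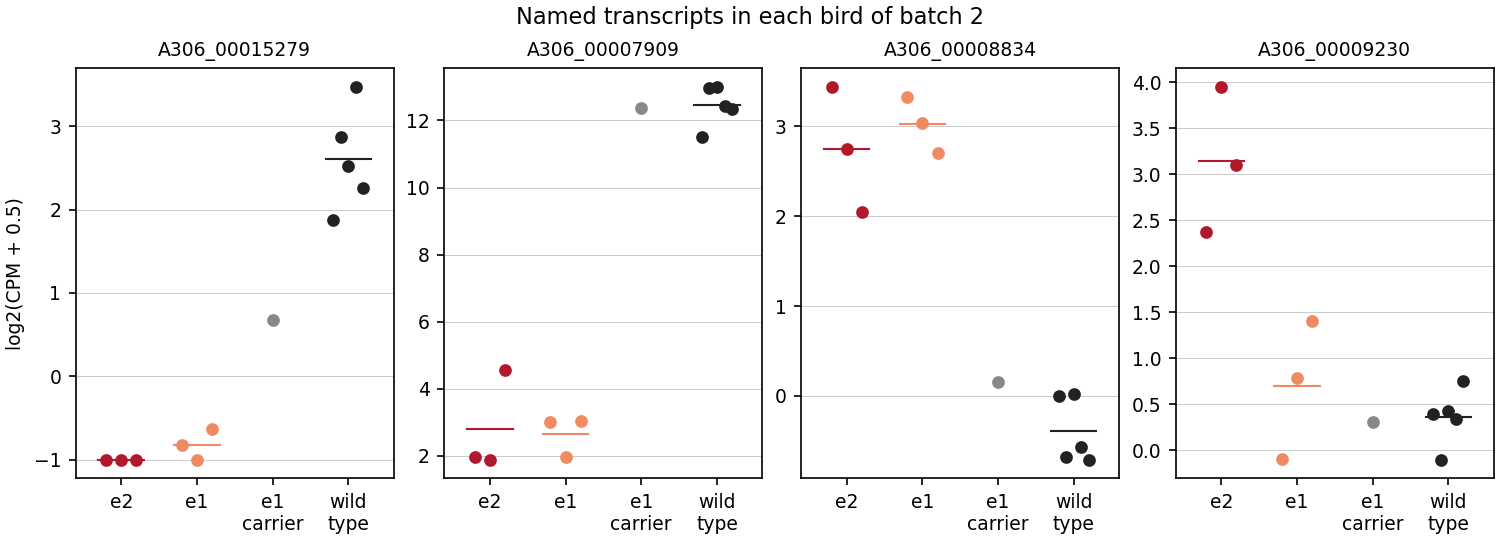
Points are the birds of batch 2, at log2(CPM + 0.5) on a scale of its own in each panel, and lines are group means; from left to right stand e2, e1, the single e1 carrier and wild type. The e2 birds lie below every wild-type bird in the 2 left panels and above every wild-type bird in the 2 right panels.

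The e2 birds were not alike in the higher genes. Bird 14 had the highest level of the 3 in 48.9% of the higher genes, against 27.1% of all tested genes, while bird 5 had it in 23.7%, against 37.7%. In the lower genes bird 14 was the lowest in 30.3%, against 25.04% of all tested genes, bird 5 in 37.1%, against 38.8%, and bird 7 in 32.6%, against 36.2%. Both sets of genes were called on these same birds, which can itself shift such shares, so they only describe the called genes. The 5 higher genes in which the groups overlapped were named for that, after their values were seen: A306_00002875, A306_00004410, A306_00006767, A306_00007090 and A306_00007615. In all of them but A306_00004410 it was bird 5 that lay within the wild-type range, and birds 7 and 14 that lay above it.

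A306_00007615 stood at 2.36 CPM in e2 bird 5, inside the wild-type range of 1.91 to 3.74 CPM, and at 26.3 and 23.4 CPM in e2 birds 7 and 14. A306_00007090 stood at 5.52, 45.2 and 19.5 CPM in e2 birds 5, 7 and 14, against 4.05 to 6.38 CPM in wild type. A306_00002875 and A306_00006767 showed the same order with smaller gaps, with bird 5 at 162 and 1.21 CPM, against a highest wild-type bird at 163 and 1.43 CPM. A306_00004410 went the other way: it had 303 counts in bird 5, 35 in bird 7 and 1 in bird 14, against 1 count over the 5 wild-type birds and 0 over the 3 e1 birds of batch 2. Its level in e2 as a group was 537 times that of wild type, with an exact 95% counting interval of 95.7 to 21300 that covers counting error only. That ratio rests on bird 5, which held 303 of the 339 counts of e2. Without bird 5 the fitted log2 fold change was 5.84, against 8.38 with all birds, and the call was lost (edgeR, adjusted p = 0.0613). DESeq2 did not call A306_00004410 (adjusted p = 0.106). In the main fit this gene passed the filter through its e2 counts alone, so its ratio only describes it. It failed the filter in the 8 birds alone, with or without a surrogate variable, and under a stricter filter. Over the settings and left-out birds in which they were tested, the adjusted p of these 5 genes ranged from 2.34e-05 to 0.163 (edgeR or DESeq2). All 5 lost their call without 1 or more of the 8 birds.

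Birds of batch 1, none of which enter the e2 comparison, were used to see whether the e2 genes differ in recessive red birds of another allele and batch. There 58 genes fell and 1 rose in e1 relative to wild type, which is 0.457% and 0.00788% of the 12693 genes tested (edgeR quasi-likelihood test). Of the 58 lower genes, 26 were also called lower in e2, or 44.8%, against the 0.671% of all genes. Seen from e2, the 26 were 30.2% of the 86 lower genes that could be tested in batch 1. In e2 the 58 genes had a median log2 fold change of -1.17, with quartiles of -2.08 and -0.57, and 52 of them were below 0. Relative to the wild-type mean their median lay at -1.34 in e2 bird 5, -1.36 in bird 7 and -0.94 in bird 14, against -0.35 in wild-type bird 00, -0.30 in bird 24 and 0.21 to 0.24 in birds 20, 21 and 23, in log2 units. All 3 e2 birds lay below all 5 wild-type birds. The 26 shared genes were 16 without e2 bird 14, 17 without wild-type bird 20 or 23 of batch 2, 15 without e1 bird 1 and 17 without e1 bird 4 of batch 1, and 81 with DESeq2.

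Genes that rose in e2 showed smaller differences in batch 1 than genes that fell. The 86 lower genes had a median log2 fold change of -1.29 in batch 1 and 91.9% were below 0, where 47.3% of all genes tested were. The 126 higher genes that could be tested had a median of 0.24 there and 75.4% were above 0, where 52.7% of all genes tested were. At an unadjusted p under 0.05 in batch 1, 66 of the 86 were lower, against 4.73% of all genes tested, and 20 of the 126 were higher, against 2.35%. The genes were chosen by their e2 values, so the sizes of their changes in the 2 batches are not set against each other. Whether the lower and the higher genes differ in this respect was not tested. The share of higher genes above 0 in batch 1 was 53.9% without e1 bird 3 of batch 1 and 86.8% without e1 bird 1.

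**Figure D5:**
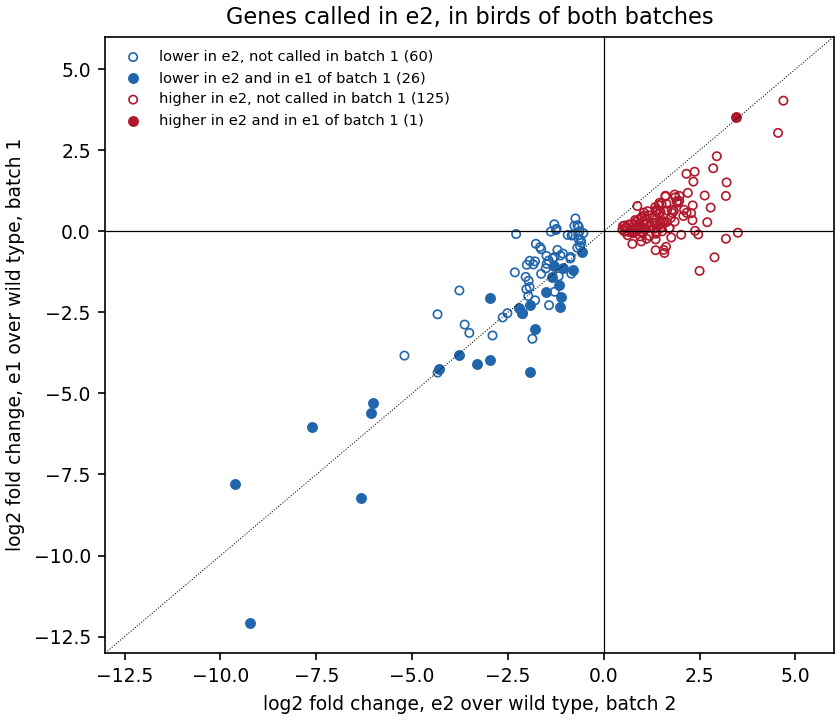
Each point is a gene called in e2 that was also tested in batch 1, at its log2 fold change of e2 over wild type in batch 2 (horizontal axis) and of e1 over wild type in batch 1 (vertical axis). Filled points are called the same way in both, 26 lower and 1 higher gene, and the dotted line marks equal values.

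The 1 gene called higher in batch 1, A306_00007803, rose in e2 as well. It stood at 5.35, 2.12 and 1.20 CPM in e2 birds 5, 7 and 14, against 0.249, 0.308, 0.194, 0.469 and 0.0562 CPM in wild-type birds 00, 20, 21, 23 and 24. The log2 fold change was 3.46 ± 0.56 in e2 (SE; edgeR, adjusted p = 0.00835) and 3.53 ± 0.51 in e1 of batch 1 (SE; edgeR, adjusted p = 0.0168). No gene was shared in this direction without e1 bird 4 or wild-type birds 1 or 3 of batch 1 (edgeR), 4 were without wild-type bird 2, and 9 were with DESeq2. The batch 1 count of 59 genes was 28 without e1 bird 1, 148 without e1 bird 3 and 29 without e1 bird 4, and 233 with DESeq2.

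The effect in e2 was tested directly against the effect in e1 of batch 1, each relative to the wild-type birds of its own batch. Of 13420 genes 2 differed, or 0.0149%, and 1167 had an unadjusted p under 0.05 (edgeR). With so few birds in a group, a gene that was not called is not shown to respond alike. This test sets 2 alleles in 2 batches against each other, so by itself it cannot tell allele and batch apart. A306_00012780 stood at 24.4, 23.4 and 27.6 CPM in e2 birds 5, 7 and 14, against 8.62 to 11.01 CPM in wild type of batch 2. In batch 1 it stood at 8.07 to 9.62 CPM in e1, against 8.56 to 16.1 CPM in wild type. In batch 2 every e2 bird was thus above every wild-type bird, and in batch 1 the groups overlapped. Levels were scaled within each batch and are not compared across them. Its log2 fold change was 1.35 ± 0.14 in e2 (SE; edgeR, adjusted p = 4.35e-04). In e1 of batch 1 it was -0.58 ± 0.24 and not called (SE; edgeR, adjusted p = 0.6385). The difference of the e2 effect from the e1 effect was 1.95 ± 0.26 (SE; edgeR, adjusted p = 0.00854), part of which comes from the value below 0 in e1. Within batch 2, e1 birds stood at 9.69 to 11.2 CPM, each below each e2 bird, and the gene was also called in e2 minus e1, which is given below.

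In A306_00014154 the larger change was in e1 of batch 1. The gene stood at 397, 908 and 406 CPM in e2 birds 5, 7 and 14, against 782, 1283, 1530, 1266 and 538 CPM in wild-type birds 00, 20, 21, 23 and 24. In batch 1 it stood at 45.7, 90.6 and 36.5 CPM in e1 birds 1, 3 and 4, against 816 to 1455 CPM in wild type. In e2 the groups overlapped through bird 7 and the gene was not called (log2 fold change -0.92 ± 0.35, SE; edgeR, adjusted p = 0.220). In e1 of batch 1 it fell by 4.32 on the log2 scale (SE 0.37; edgeR, adjusted p = 0.00107), and the difference of the effects was 3.41 ± 0.52 (SE; edgeR, adjusted p = 0.0293). In batch 2, e1 birds stood at 173 to 224 CPM, each below each e2 bird, but e2 minus e1 was not called there (log2 difference 1.504 ± 0.391, SE; edgeR, adjusted p = 0.599). The count of 2 became 0 without e1 bird 1 or e1 bird 4 of batch 1, 74 without e1 bird 3, 13 without e2 bird 5 and 50 with DESeq2. It became 1 without wild-type birds 1, 3 or 4 of batch 1, or 00, 20 or 23 of batch 2. Without e2 bird 7 the count stayed at 2, but another gene took the place of A306_00014154. The difference of the effects in A306_00014154 was then 2.91 (edgeR, adjusted p = 0.0686), and its log2 fold change in e2 was -1.42 (edgeR, adjusted p = 0.0597).

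Within batch 2, e2 and e1 differed in 3 of 13269 genes, or 0.0226%. All 3 were among the 228 genes called in e2, where 1.05% of all tested genes were called higher and 0.671% lower. Both comparisons use the same e2 birds, which favours such an overlap, so it only describes these genes. The 3 genes were A306_00012780, again higher in e2, and A306_00009490 and A306_00013822, both lower. A306_00009490 stood at 4.83, 7.27 and 7.13 CPM in e2 birds 5, 7 and 14, against 20.8 to 23.7 CPM in e1 and 37.6 to 73.9 CPM in wild type. A306_00013822 stood at 46.8, 48.8 and 50.8 CPM in e2, against 83.4 to 109 CPM in e1 and 135 to 175 CPM in wild type. In both genes e2, e1 and homozygous wild type of batch 2 formed 3 steps with no overlap, with e2 the lowest. Both genes were chosen by calls on these same birds, which favours e2 as the lowest, so the steps only describe them. The single carrier stood at 48.4 CPM for A306_00009490, within the wild-type range, and at 105 CPM for A306_00013822, within the e1 range. In e1 of batch 1 A306_00009490 was called lower (log2 fold change -2.07 ± 0.24, SE; edgeR, adjusted p = 0.00526). A306_00013822 also had a lower mean in e1 there, but the groups overlapped. It stood at 29.3 to 83.4 CPM in e1 of batch 1 and at 79.0 to 179 CPM in wild type of batch 1. The gene was not called there (log2 fold change -1.31 ± 0.36, SE; edgeR, adjusted p = 0.268). The effect in e2 minus the effect in e1 of batch 1 was called for neither gene. It was -0.89 ± 0.33 for A306_00009490 (SE; edgeR, adjusted p = 0.489) and -0.31 ± 0.38 for A306_00013822 (SE; edgeR, adjusted p = 0.825). The log2 difference of e2 minus e1 was 1.29 ± 0.16 for A306_00012780 (SE; edgeR, adjusted p = 0.0452), -1.76 ± 0.25 for A306_00009490 (SE; edgeR, adjusted p = 0.0453) and -1.04 ± 0.15 for A306_00013822 (SE; edgeR, adjusted p = 0.0453). Without any 1 of the 6 recessive red birds none of these 3 genes was called by edgeR, at adjusted p between 0.0506 and 0.211. The count was then 0, except without e1 bird 6, when 1 other gene was called, and DESeq2 called 27 genes with all birds.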

How the data were processed

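Per the file headers, the authors deposited raw counts per gene, 1 column of whole numbers for each of the 19 birds. Beside them the authors deposited DESeq2 results: a mean scaled count per gene (a signal value), a log2 fold change with its standard error, a test score, and p-values. These were not used here. For the aligner, the counter and strandedness, nothing is given in the sources used here. DESeq2 is named in the submitters' processing notes. The protocol speaks of feathers from each pigeon and each sample has its own number, so a sample was taken as 1 bird; p-values measure only the spread between these samples.

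Genes were kept by filterByExpr, scaled by TMM and tested with the quasi-likelihood test of edgeR (version 4.0.16, R 4.3.3), with Benjamini-Hochberg adjustment over all genes tested. The e2 fit held all 12 birds of batch 2, with a coefficient for each of the 4 groups, so that e1 birds add to the estimate of the spread and the carrier is in neither group. The carrier was the smallest group of that fit, so a gene could pass the filter on the counts of 1 bird. The difference between the effects was fitted in all 19 birds with 6 groups. The standard error (SE) is an approximation, the absolute log2 fold change divided by the square root of F. CPM values use the TMM-scaled library size, are scaled within a batch and are not per length. DESeq2 (version 1.42.0) and 1 surrogate variable from sva (version 3.50.0) were alternatives. The scripts were tested on simulated data.

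The naming rule took the 2 genes per direction with the largest change among called genes with a mean log2 CPM of at least 1 over the 8 birds and no overlap between groups. Also named, as each count was 5 or fewer, were the called genes with overlapping groups and the gene called higher in batch 1. The same held for the genes called in the difference of the effects and in e2 minus e1. Genes of other small counts are not named. The birds, lists and tests were chosen with earlier results of these data known. Of 6 gene lists by symbol, among them pigment genes, 0 members matched, so none could be tested. The closest pair among the 28 pairs of the 8 birds had a chi-square of 25.7 per gene, far above sampling noise, so no library was a copy of another. This check cannot tell whether 2 samples came from the same bird.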

Additional observations from a re-analysis of the deposited data

Results flagged for a closer look

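The test of the difference itself set apart 4 genes. The effect in e2 differed from the effect in e1 of batch 1 in A306_00012780, by 1.95 log2 units (edgeR, adjusted p = 0.00854), and in A306_00014154, by 3.41 (edgeR, adjusted p = 0.0293). Within batch 2, e2 and e1 differed in A306_00012780 by 1.29 (edgeR, adjusted p = 0.0452), in A306_00009490 by -1.76 and in A306_00013822 by -1.04 (edgeR, adjusted p = 0.0453 for both). Leaving out any 1 of the 6 recessive red birds of batch 2 lost all of these e2 minus e1 calls (edgeR). Neither difference from the effect in batch 1 was called without e1 bird 1 or e1 bird 4 of batch 1 (edgeR).

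Over 18 checks of the wild-type birds of batch 2, covering 14 named genes and 4 library measures, 2 had a bird far from the others, where about 1 in 20 such checks is passed by chance. For A306_00004410 the gap took up 1 of the whole range, as bird 24 had 1 count and the other birds 0. Any single count among birds at 0 gives that value, so the 1 in 20 does not apply to it and nothing is read from it. For A306_00006767 it took up 0.768 of the range, with bird 21 at 1.43 CPM and the next at 0.761 CPM. That gene was named because the groups overlapped, and bird 21 was the only wild-type bird above e2 bird 5, at 1.21 CPM. The way it was chosen thus favours such a gap, so the 1 in 20 does not apply to it either.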

How the results depend on the processing

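For the e2 comparison, other scalings, other filters, calls of at least 2-fold only, the 8 birds alone and 1 surrogate variable gave 173 to 238 genes, DESeq2 gave 696, and leaving out a bird gave 95 to 304. Similar totals did not mean the same genes. The 8 birds alone gave 226 genes, of which 180 were among the 228 of the main fit. With 1 surrogate variable in those birds 238 were called, of which 166 were among the 228. The count for e1 of batch 1 was 233 with DESeq2 and 28 to 148 with a bird left out. With the bird number as a replicate block it was 39; same-numbered birds of batch 1 did not deviate together (correlations of -0.20, -0.09 and -0.15), so the numbers were not taken to pair the birds. The 26 lower genes shared with batch 1 became 81 with DESeq2 and 15 to 33 with a bird left out, and the 1 shared higher gene became 9 with DESeq2, 2 with the replicate block and 0 to 4 with a bird left out. Those 2 do not include A306_00007803, which was not called in batch 1 under the block (log2 fold change 4.04; edgeR, adjusted p = 0.0544). The 2 genes that differed between the effects became 50 with DESeq2 and 0 to 74 with a bird left out. The 3 genes of e2 minus e1 became 27 with DESeq2, 1 with upper-quartile scaling and 0 to 1 with a bird left out. In the 6 recessive red birds alone edgeR called 0, with 472 of the 12535 genes tested at an unadjusted p under 0.05. Of 372 values of the named genes under alternatives, 296 kept their side of the threshold, 76 lost the call and 0 changed sign while called. The cause of these changes was not tested.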

Other observations

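The single wild-type carrier of e1 entered no comparison. It was below every homozygous wild-type bird in 43 of the 89 lower genes and above every one in 51 of the 139 higher genes, where 10.3% and 10.8% of all tested genes did so. The e2 genes were chosen on these e2 and wild-type birds, so these counts are a description only. In the 58 genes lower in batch 1, chosen without birds of batch 2, the carrier was below every homozygous wild-type bird in 19, against 10.3% of all tested genes. A306_00015279 stood at 1.10 CPM in the carrier, between 0 in e2 and the lowest wild-type bird at 3.18 CPM. A306_00007909 stood at 5302 CPM in the carrier, within the wild-type range, and A306_00009230 at 0.732 CPM, also within it. With 1 bird there is no test.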
